A study of Rattus norvegicus with 12 samples.

Results

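The genes Gad1, Gad2 and Slc32a1, which mark neurons that make and release GABA, were 3 of 10411 genes named on the array and were measured by 4 of the 15866 probe sets tested. They were taken by name: each probe set of the array whose only gene symbol was one of these 3 was kept, with no use of its values. Gad1 had 2 probe sets (1368344_at and 1370760_a_at), Gad2 had 1 (1369462_at) and Slc32a1 had 1 (1387380_at). The samples were 12 cultures of ventral midbrain from CD1 rat embryos at day 12, expanded over 6 days in medium holding bFGF (20 ng/ml), a mitogen for neural progenitors, and the ventral patterning protein SHH (50 ng/ml), then kept for 3 days after both were withdrawn. On day 9 the cultures received 56 mM KCl, which depolarizes neurons, or control medium for 2 h, and RNA was collected at 1 of 2 later times. The 4 groups, with 3 arrays each, were depolarized cultures whose RNA was taken 2 h after KCl ended, control cultures of that collection, depolarized cultures taken at 30 min, and control cultures of that collection.

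All groups shared the growth factor treatment, and all were mixed primary cultures that the series title calls enriched in dopaminergic neurons. The litters of 4 rats were combined and divided into 3 pools of embryos, and duplicate cultures gave 1 RNA pool, so the spread given here is between pooled cultures, not between animals. Replicates 1 to 3 belong to the 30 min collection and replicates 4 to 6 to the 2 h collection, and the labels do not say whether both collections came from 1 preparation. Collection time, preparation and array processing therefore cannot be told apart in any comparison of 2 h with 30 min. Over all probe sets, correlations were 0.9957 to 0.9979 within groups and 0.9717 to 0.9922 between groups. Fos, an immediate-early gene that neuronal activity induces, was at 10.33 to 10.42 in depolarized and 6.90 to 7.08 in control cultures at 2 h, and at 10.89 to 11.25 in depolarized and 6.95 to 7.04 in control cultures at 30 min (log2, probe set 1375043_at), while another Fos probe set (1371283_at) was flat, at 7.38 to 7.69 over all arrays.

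GABA is the main inhibitory transmitter of the adult brain, and it is made from glutamate by glutamate decarboxylase. Gad1 encodes the form called GAD67, which is found throughout the neuron and supplies most GABA, and Gad2 encodes GAD65, which is concentrated at synaptic terminals. Slc32a1 encodes the vesicular transporter VGAT, which loads GABA and glycine into synaptic vesicles, so glycinergic neurons carry it too. The ventral midbrain holds GABAergic neurons beside the dopaminergic ones. The table holds no detection calls, so the presence of a transcript was not called. Levels of different probe sets are not set against each other, except where the share of all probe sets that were dimmer is given.

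In the GRCr8 rat annotation, Gad1 lies at chr3:75777260-75818099, Slc32a1 at chr3:167687245-167691714 and Gad2 at chr17:89671718-89734246. Their promoter windows (RefSeq, GRCr8, gene strand) are shown for reference, and any link of the sequences to the array profiles was not tested. Each window spans 250 bases before and 50 after the start site of the promoter reference. For Gad2 and Slc32a1 that site is the start of the annotated gene. For Gad1 it lies 192 bases inside the annotated gene, so the window holds 58 bases before the gene's first base and 242 from it on, and most of the sequence upstream of the annotated start was not searched. Capitals mark the searched motifs: the full CRE TGACGTCA, its core TGACG, the AP-1 letters TGACTCA or TGAGTCA, and the GC box GGGCGG, which reads CCGCCC on the other strand. Both strands were searched, and a full CRE also holds the core.
Gad1, chr3:75777202-75777501, plus strand: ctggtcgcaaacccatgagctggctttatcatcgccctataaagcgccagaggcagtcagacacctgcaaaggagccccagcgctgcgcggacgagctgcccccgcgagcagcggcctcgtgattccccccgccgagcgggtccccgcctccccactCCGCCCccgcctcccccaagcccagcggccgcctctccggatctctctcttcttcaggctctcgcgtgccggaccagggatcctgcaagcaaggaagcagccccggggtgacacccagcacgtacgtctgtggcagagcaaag
Gad2, chr17:89671468-89671767, plus strand: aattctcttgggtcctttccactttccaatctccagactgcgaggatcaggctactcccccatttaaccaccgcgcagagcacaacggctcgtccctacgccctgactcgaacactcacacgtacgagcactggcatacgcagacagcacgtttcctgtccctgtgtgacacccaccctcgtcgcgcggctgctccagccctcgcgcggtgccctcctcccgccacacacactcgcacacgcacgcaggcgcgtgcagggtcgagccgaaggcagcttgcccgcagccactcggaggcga
Slc32a1, chr3:167686995-167687294, plus strand: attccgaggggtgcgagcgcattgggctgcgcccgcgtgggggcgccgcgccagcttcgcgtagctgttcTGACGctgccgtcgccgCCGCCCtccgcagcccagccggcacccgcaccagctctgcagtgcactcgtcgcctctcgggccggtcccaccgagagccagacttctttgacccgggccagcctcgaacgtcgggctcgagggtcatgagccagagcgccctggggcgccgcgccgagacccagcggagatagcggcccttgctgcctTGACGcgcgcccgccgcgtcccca

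The Slc32a1 window held the CRE core at 2 places and 1 GC box. The Gad1 window held 1 GC box and no CRE core, and the Gad2 window held none of the searched letters. None of the 3 windows held a full CRE or the AP-1 letters. Over 33469 promoter windows of the same length, 1.83% held the full CRE, 21.2% the core, 4.63% the AP-1 letters and 33.1% the GC box. All 3 windows were rich in G and C, with 67.7% for Gad1, 63.7% for Gad2 and 73.7% for Slc32a1, beside a median of 51.7% over all windows. They held 26, 29 and 42 CpG pairs in the same order, beside a median of 7.

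Depolarization changed none of the 4 probe sets past the test at either collection. Of all probe sets, 25.2% passed at 2 h and 24.0% at 30 min. All 4 marker probe sets were higher at 2 h than at 30 min in depolarized and in control cultures. Among all probe sets, 19.2% and 18.1% passed as higher, in the same order. The largest of these differences belonged to Gad1 probe set 1368344_at, with 3.54-fold in depolarized and 3.78-fold in control cultures, followed by Slc32a1 with 2.36-fold in depolarized and 2.81-fold in control cultures. Gad2 differed least, by 1.15-fold in depolarized and 1.26-fold in control cultures, and its call in depolarized cultures sat at the threshold (adjusted p = 0.0490 by limma). Collection time, preparation and array processing cannot be told apart in these differences. All values below are on the log2 scale of the deposited table, where 1 unit is a doubling, and are probe set summaries by robust multi-array averaging (RMA). Differences were tested with limma, with p-values adjusted by the Benjamini-Hochberg method over the 15866 probe sets of a comparison and a threshold of 0.05.

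Gad1 probe set 1368344_at was at 10.78, 10.76 and 10.54 in depolarized and at 10.90, 10.70 and 10.80 in control cultures collected at 2 h. In the 30 min collection it was at 8.70, 8.64 and 9.27 in depolarized and at 9.10, 8.39 and 9.15 in control cultures. The treatments overlapped within each collection, and every 2 h array lay above every 30 min array. The means were 10.69 ± 0.13 and 10.80 ± 0.10 for depolarized and control at 2 h, and 8.87 ± 0.35 and 8.88 ± 0.43 for depolarized and control at 30 min (SD, n = 3 each). The 2 h arrays were thus closer together than the 30 min arrays, in which the second replicate was the lowest under both treatments.

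The other Gad1 probe set, 1370760_a_at, kept to a narrower range. It was at 7.73, 7.63 and 7.45 in depolarized and at 7.28, 7.25 and 7.62 in control cultures at 2 h, and at 6.92, 6.72 and 6.87 in depolarized and at 6.83, 6.75 and 6.96 in control cultures at 30 min. At 2 h a single control array, replicate 6, reached into the depolarized range, and the 30 min arrays lay together below all 2 h arrays. The means were 7.60 ± 0.14 and 7.38 ± 0.21 for depolarized and control at 2 h, and 6.84 ± 0.10 and 6.85 ± 0.11 for depolarized and control at 30 min. By the array maker's naming, the suffix a marks a probe set that can match several transcripts of the same gene.

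Gad2 was at 7.09, 7.32 and 7.04 in depolarized and at 7.08, 7.13 and 7.21 in control cultures at 2 h, and at 7.02, 6.99 and 6.82 in depolarized and at 6.85, 6.75 and 6.84 in control cultures at 30 min. Its 12 values spanned less than 1 log2 unit, and the gap between the lowest depolarized array at 2 h and the highest depolarized array at 30 min was small. Slc32a1 was at 9.25, 9.20 and 9.27 in depolarized and at 9.54, 9.13 and 9.20 in control cultures at 2 h, and at 8.10, 7.65 and 8.25 in depolarized and at 7.69, 7.41 and 8.31 in control cultures at 30 min. As for Gad1 probe set 1368344_at, its treatments overlapped, the collections did not, and the second replicate was lowest under both treatments at 30 min.

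**Figure D1:**
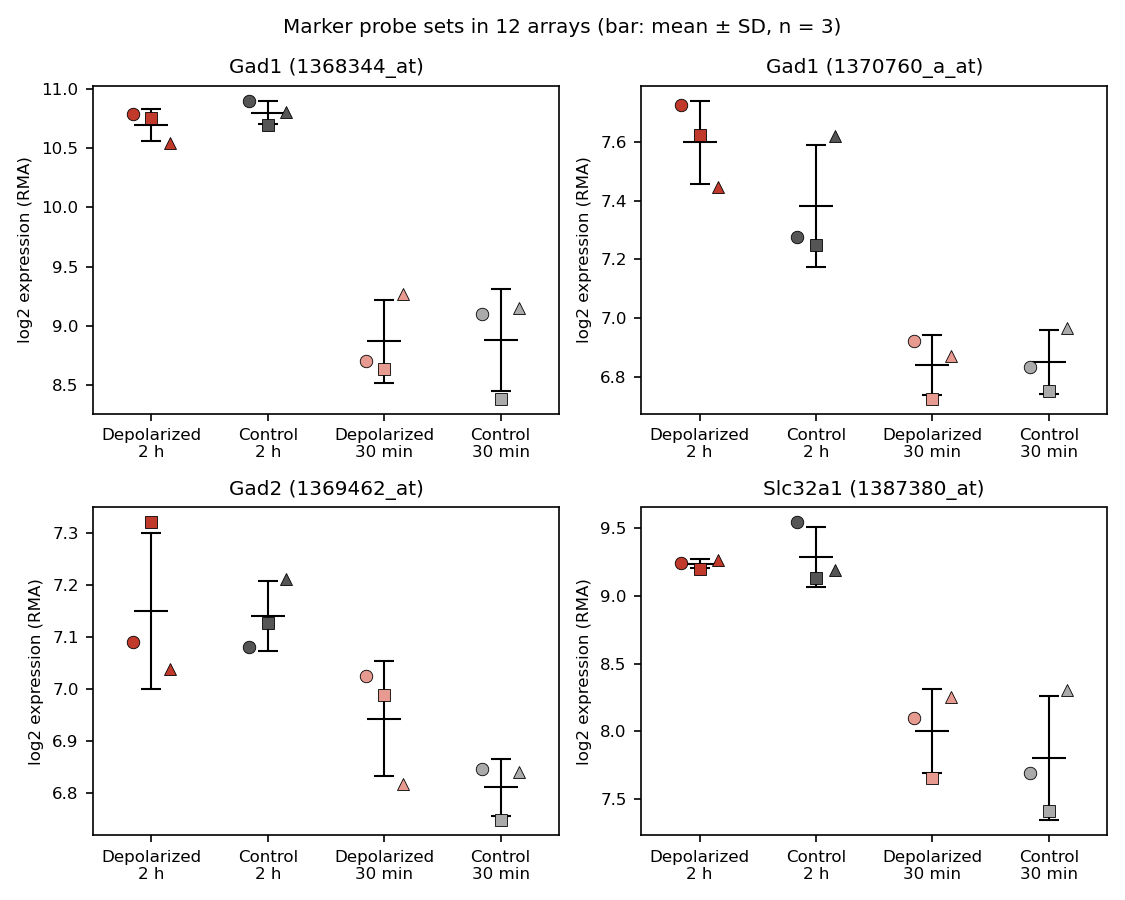
Log2 expression of the 4 probe sets in each array (vertical axis, RMA, a separate scale for each panel) by group (horizontal axis). Circles, squares and triangles are the replicates of a group by rising number and bars are the mean ± SD of 3 arrays; in all 4 panels the 6 arrays of the 2 h collection lie above the 30 min arrays of the same treatment.

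The order of the group means for Gad1 probe set 1368344_at and for Slc32a1 put control at 2 h highest and depolarized at 2 h next. For Gad1 the next was control at 30 min and then depolarized at 30 min, and for Slc32a1 depolarized at 30 min and then control at 30 min. For Gad1 probe set 1370760_a_at and for Gad2 depolarized at 2 h was highest and control at 2 h next. At 30 min the order was control and then depolarized for Gad1 probe set 1370760_a_at, and depolarized and then control for Gad2. In each order the neighbours of 1 collection overlapped and did not pass the test, and the collections of the same treatment did.

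The question the design states is what depolarization changed. At 2 h, 25.2% of all probe sets passed the test between depolarized and control cultures, and 0 of the 4 marker probe sets did by limma (1 of 4 before adjustment). All 4 overlapped between the treatments, while 37.5% of all probe sets had their 3 depolarized arrays apart from the 3 controls. The difference, depolarized minus control, was -0.10 for Gad1 probe set 1368344_at (SE 0.18, 95% confidence interval -0.48 to 0.27, adjusted p = 0.728 by limma). It was -0.05 for Slc32a1 (-0.44 to 0.34, adjusted p = 0.879) and 0.01 for Gad2 (-0.16 to 0.18, adjusted p = 0.949). For Gad1 probe set 1370760_a_at it was 0.22 (0.0035 to 0.43), the probe set that passed before adjustment and not after it (adjusted p = 0.135 by limma). Without control replicate 6 this difference was 0.34 and passed (adjusted p = 0.0152 by limma).

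At 30 min, 24.0% of all probe sets passed, and again 0 of the 4 by limma (0 of 4 before adjustment). All 4 overlapped between the treatments, while 36.8% of all probe sets were apart. The difference was -0.01 for Gad1 probe set 1368344_at (-0.38 to 0.37, adjusted p = 0.982 by limma) and -0.01 for 1370760_a_at (-0.22 to 0.20, adjusted p = 0.963). It was 0.13 for Gad2 (-0.04 to 0.30, adjusted p = 0.289) and 0.20 for Slc32a1 (-0.19 to 0.59, adjusted p = 0.526). Without control replicate 3, which had the highest Slc32a1 value of the 30 min arrays, the Slc32a1 difference was 0.45 and passed (adjusted p = 0.0462 by limma). The intervals show what the arrays could resolve in signal. A change of the Gad2 signal beyond 0.30 in either direction lies outside them at both collections. For Slc32a1 a rise of up to 0.59 at 30 min lies inside. By mean signal over all arrays, only 27.5% of all probe sets were dimmer than Gad2. How far so dim a signal follows the transcript was not tested, so its interval does not bound a change of Gad2 RNA. The spread of Gad1 probe set 1368344_at and Slc32a1 within groups was wide, with residual SDs of 0.288 and 0.299 against a median of 0.0938 over all probe sets.

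The response at 2 h minus the response at 30 min was -0.10 and 0.23 for the Gad1 probe sets 1368344_at and 1370760_a_at, -0.12 for Gad2 and -0.25 for Slc32a1. None of the 4 passed (adjusted p from 0.362 to 0.878 by limma), and 0 of 4 did before adjustment, where 13.0% of all probe sets did after it (6.16% with a higher and 6.79% with a lower response at 2 h).

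The collections differed far more. Between control cultures, 35.3% of all probe sets passed the test, with 18.1% higher and 17.2% lower at 2 h, and all 4 marker probe sets were among the higher ones. Control at 2 h minus control at 30 min was 1.92 for Gad1 probe set 1368344_at (SE 0.18, 1.54 to 2.29, adjusted p = 5.65e-07 by limma) and 1.49 for Slc32a1 (SE 0.18, 1.10 to 1.88, adjusted p = 1.13e-05). It was 0.53 for Gad1 probe set 1370760_a_at (SE 0.10, adjusted p = 0.000616) and 0.33 for Gad2 (SE 0.08, adjusted p = 0.00435). For all 4 the 3 arrays of 2 h lay above the 3 of 30 min, a separation in one direction or the other that 49.5% of all probe sets showed. In a mixed culture, fewer cells of a type and less RNA per cell cannot be told apart.

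Between depolarized cultures, 41.0% of all probe sets passed, with 19.2% higher and 21.8% lower at 2 h, and the 4 marker probe sets were again among the higher ones, each with its 3 arrays of 2 h above those of 30 min (49.9% of all probe sets were apart). Depolarized at 2 h minus depolarized at 30 min was 1.82 for Gad1 probe set 1368344_at (SE 0.18, adjusted p = 8.14e-07 by limma), 0.76 for 1370760_a_at (SE 0.10, adjusted p = 1.88e-05) and 1.24 for Slc32a1 (SE 0.18, adjusted p = 5.57e-05). For Gad2 it was 0.21 (SE 0.08, 0.04 to 0.38, adjusted p = 0.0490), which sits at the threshold. It no longer passed when only the 6 depolarized arrays were fitted (adjusted p = 0.0947), and without depolarized replicate 5 of the 2 h collection it was 0.12 (adjusted p = 0.228 by limma). Of the 12 fits that each left out 1 array, 2 kept the Gad2 call.

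**Figure D2:**
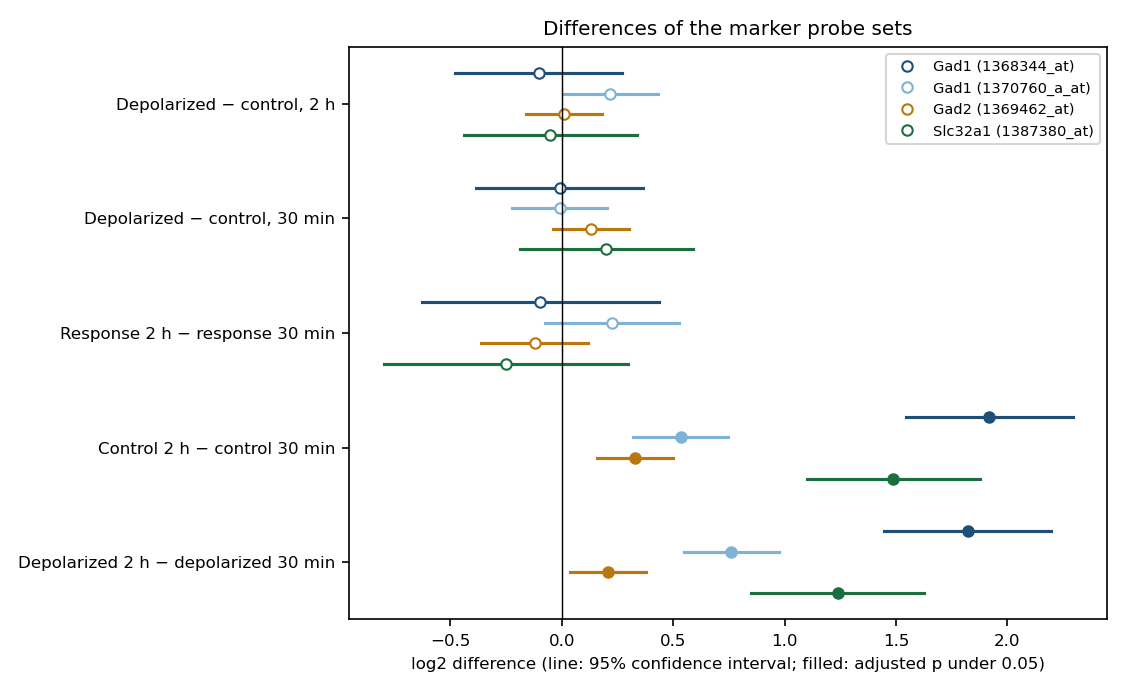
Log2 difference of each probe set (horizontal axis) in the 5 comparisons, with 95% confidence intervals; filled points passed at an adjusted p of 0.05 by limma. The treatment differences and their change between collections are all open and lie around 0, and the 8 differences between collections are filled and lie between 0.21 and 1.92.

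The Gad1 probe sets rose by unequal amounts. Within each array, 1368344_at minus 1370760_a_at averaged 3.09 ± 0.04 in depolarized cultures at 2 h against 2.03 ± 0.33 in depolarized cultures at 30 min, and 3.41 ± 0.22 in control cultures at 2 h against 2.03 ± 0.34 in control cultures at 30 min (SD, n = 3 each). All 6 arrays of 2 h lay above all 6 of 30 min, a difference of 1.22 (two-sided exact permutation test, p = 0.00216, the smallest that 6 against 6 arrays allow). Within each treatment, 3 against 3 arrays gave p = 0.1, the smallest that this exact permutation test allows. At 2 h the pair also differed between treatments, by -0.32, with all 3 depolarized arrays below the 3 control arrays (exact permutation p = 0.1). The comparison of the pair was chosen after the values were seen, so these p-values are not read as support for a difference. Only its difference between arrays can be read, since the offset of one probe set from another is not a level.

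Markers that all neurons share moved with these differences. Of 18 measured pan-neuronal genes, 17 were higher at 2 h in control cultures and 0 lower, with a median of 1.07, against a median of -0.04 over all probe sets. Tubb3, the neuronal beta-tubulin, rose by 1.16 (adjusted p = 2.21e-07 by limma), although a further Tubb3 probe set was at -0.10 (adjusted p = 0.447). The mean of the 18 genes was 11.19 to 11.28 in depolarized and 11.29 to 11.31 in control arrays at 2 h, and 10.30 to 10.42 in depolarized and 10.12 to 10.34 in control arrays at 30 min. Control replicate 2 at 30 min, the lowest of its group for Gad1 probe set 1368344_at and Slc32a1, was also the lowest in 14 of these 18 genes, while depolarized replicate 2 at 30 min was the lowest of its group in 9 of 18.

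Set against the pan-neuronal mean of the same array, the 4 probe sets divided. In control cultures, Gad1 probe set 1368344_at minus that mean was -0.50 ± 0.11 at 2 h against -1.36 ± 0.32 at 30 min, with no overlap. Slc32a1 minus the mean was -2.0 ± 0.23 at 2 h against -2.44 ± 0.36 at 30 min, and the arrays overlapped. For Gad1 probe set 1370760_a_at it was -3.91 ± 0.21 at 2 h against -3.40 ± 0.04 at 30 min, and for Gad2 -4.15 ± 0.07 against -3.43 ± 0.07, both without overlap and in the opposite direction (SD, n = 3 each). In depolarized cultures, 2 h minus 30 min of this quantity was 0.96 for Gad1 probe set 1368344_at, 0.38 for Slc32a1 and -0.65 for Gad2, all without overlap. It was -0.10 for Gad1 probe set 1370760_a_at, and those arrays overlapped. By mean signal, only 29.8% of all probe sets were dimmer than Gad1 probe set 1370760_a_at, and 27.5% than Gad2. Whether such dim signals follow RNA as steeply as the list mean was not tested. Their fall against that mean is therefore not read as a fall of RNA per neuron. These are descriptions with no test, and the part that a change in the number of neurons has in the marker differences was not tested.

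Other cell type lists moved less or in the opposite direction between the controls. Of 11 dopaminergic markers 6 rose and 0 fell (median 0.43), among them Th, the enzyme that starts dopamine synthesis, by 0.43 (adjusted p = 0.0172 by limma). Of 5 glutamatergic markers 1 rose and 1 fell. The riser was Slc17a6, the vesicular glutamate transporter of midbrain, by 0.93 (adjusted p = 1.49e-06). Of 11 neural progenitor markers 1 rose and 8 fell (median -0.36), of 8 oligodendrocyte lineage markers 0 rose and 6 fell (median -0.25), and of 9 astrocyte markers 1 rose and 4 fell. Of 10 microglia markers 0 passed in either direction by limma (2 before adjustment). The shares to read these counts against are 18.1% higher and 17.2% lower among all probe sets.

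**Figure D3:**
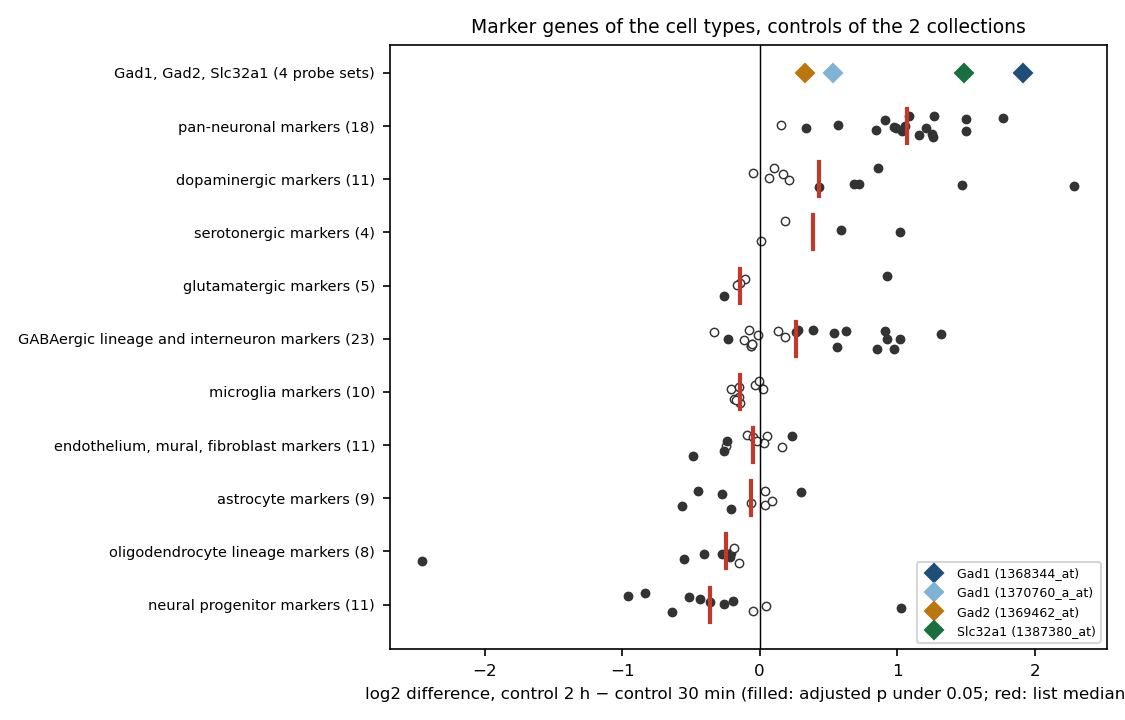
Log2 difference of control cultures at 2 h minus control cultures at 30 min (horizontal axis) for the 4 probe sets (diamonds) and the genes of each cell type list (circles, filled where the adjusted p was under 0.05, with the number measured in brackets). Red bars are list medians; the pan-neuronal median is 1.07 and that of the neural progenitor markers -0.36.

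Factors of GABAergic lineages and interneuron markers were a further 23 measured genes. In control cultures 12 rose and 1 fell at 2 h (median 0.27), beside 18.1% higher and 17.2% lower among all probe sets. The lineage factors among them, named after their values were seen, included Gata3 (1.02), Tal1 (0.93), Lhx5 (0.91) and Lhx1 (0.56), transcription factors of developing midbrain and spinal GABAergic neurons, whereas Gata2, which acts with them, was at 0.13 and did not pass (adjusted p = 0.183 by limma). Gata3 was also counted among the serotonergic markers. The interneuron markers Sst and Npy, which encode neuropeptides and were also named after their values were seen, rose by 0.28 and 0.27. Pvalb, which encodes a calcium-binding protein, was at -0.06 and did not pass (adjusted p = 0.476 by limma). Neuropeptide genes of the list did not all move together. In control cultures Tac1 was at 7.63 ± 0.03 at 2 h against 7.24 ± 0.07 at 30 min, whereas Penk was lower at 2 h, at 8.94 ± 0.11 against 9.27 ± 0.29. Their tests are not given here.

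Under depolarization at 2 h, 2 of these 23 genes rose and 3 fell (median 0.0011), beside 9.51% higher and 15.7% lower among all probe sets. Lhx5 fell by 0.49, to 7.41 ± 0.05 in depolarized against 7.90 ± 0.18 in control cultures (adjusted p = 0.00132 by limma), and Lhx1 fell by 0.41 (adjusted p = 0.00523). Penk, the enkephalin precursor, rose by 0.58, to 9.52 ± 0.10 against 8.94 ± 0.11 (adjusted p = 0.00324), and Tac1, the substance P precursor, rose by 0.38 (adjusted p = 0.00177). At 30 min 2 rose and 1 fell, with 10.8% higher and 13.1% lower among all probe sets. Dlx5, a homeobox factor of forebrain GABAergic neurons, rose by 0.24 (adjusted p = 0.0455), the neuregulin receptor Erbb4 rose by 0.21 (adjusted p = 0.0439), and Lhx5 fell by 0.28 (adjusted p = 0.0427). The Erbb4 signal was dim, at 6.43 ± 0.15 in depolarized against 6.22 ± 0.05 in control cultures. The first quartile of all probe set means was 6.83, and whether so dim a signal follows the transcript was not tested.

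Of 13 measured genes of GABA supply and breakdown, 1 rose and 3 fell at 2 h (7.69% and 23.1%, median -0.05), beside 9.51% higher and 15.7% lower among all probe sets. At 30 min 1 rose and 0 fell (7.69% and 0%, median 0.02), beside 10.8% and 13.1%. Over all 20 probe sets of these genes, 1 rose and 1 fell at 30 min. Glul, glutamine synthetase, rose by 0.49 at 2 h (adjusted p = 0.000511 by limma), and its 2 other probe sets also passed, at 0.52 and 0.64. The glutamine transporters Slc38a3 and Slc38a1 fell by 0.39 (adjusted p = 0.00109) and by 0.32 (adjusted p = 0.0303), although the 2 other Slc38a1 probe sets did not pass (-0.10 and -0.11). Aldh1a1, an aldehyde dehydrogenase that can make GABA from putrescine in dopaminergic neurons of mice, fell by 0.59 (adjusted p = 0.0356), with overlapping arrays. Aldh1a1 was also counted among the dopaminergic markers, and Glul among the astrocyte markers. At 30 min Slc38a2, an amino acid transporter that carries glutamine, rose by 2.28, to 11.58 ± 0.10 in depolarized against 9.30 ± 0.05 in control cultures (adjusted p = 1.91e-11). The enzymes of GABA breakdown did not pass at either collection: Abat, GABA transaminase, was at -0.05 at 2 h and -0.10 at 30 min (adjusted p = 0.705 and 0.363), and Aldh5a1, succinate semialdehyde dehydrogenase, was at 0.05 and 0.08 (adjusted p = 0.593 and 0.419).

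Of 6 measured plasma membrane transporters of the family that carries GABA and glycine, 1 rose and 1 fell at each collection (16.7% each way). That is near the shares of all probe sets, 9.51% higher and 15.7% lower at 2 h and 10.8% and 13.1% at 30 min. Not all 6 carry GABA or glycine as their main substrate, and the riser at both collections was the taurine transporter. Slc6a13, the GABA transporter GAT2, fell by 0.65 at 2 h, to 8.66 ± 0.14 in depolarized against 9.31 ± 0.05 in control cultures (adjusted p = 0.000191 by limma), and by 0.30 at 30 min (adjusted p = 0.0330). Slc6a6, the taurine transporter, rose by 0.35 at 2 h (adjusted p = 0.00339) and by 0.54 at 30 min (adjusted p = 6.26e-05), and its other probe set rose by 0.34 at 30 min and did not pass at 2 h (0.05, adjusted p = 0.705). Slc6a11, the GABA transporter GAT3, did not pass for depolarization (0.03 at 2 h and -0.29 at 30 min), and was lower at 2 h than at 30 min in control cultures (-0.89, adjusted p = 0.00207 by limma). Its signal was dim, at 5.77 to 5.95 in control cultures at 2 h, below the first quartile of all probe set means (6.83).

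Of 23 measured GABA receptor and inhibitory synapse genes, 0 rose and 3 fell at 2 h (13.0% lower, median 0.05), beside 9.51% higher and 15.7% lower among all probe sets; 3 were higher before adjustment. Gabrb2, a beta subunit of the GABA-A receptor, fell by 0.74, to 9.11 ± 0.11 in depolarized against 9.85 ± 0.06 in control cultures (adjusted p = 5.36e-05 by limma), whereas the other Gabrb2 probe set was at -0.15 (adjusted p = 0.170). Gphn, gephyrin, the scaffold of inhibitory synapses, fell by 0.59, to 9.28 ± 0.06 against 9.87 ± 0.05 (adjusted p = 0.000106). Gabbr2, a subunit of the GABA-B receptor, fell by 0.46 (adjusted p = 0.0364), whereas the other Gabbr2 probe set was at -0.05 (adjusted p = 0.690). At 30 min 2 rose and 0 fell (8.70% higher, median 0.08), beside 10.8% higher and 13.1% lower among all probe sets: Gabarapl1, a relative of the GABA-A receptor-associated protein that serves autophagy, by 0.48 (adjusted p = 6.78e-05) and Gabrb2 by 0.28 (adjusted p = 0.0476). The other Gabrb2 probe set was at -0.05 at 30 min and did not pass (adjusted p = 0.727 by limma).

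Chloride transport sets whether GABA excites or inhibits a neuron. Of 6 measured chloride transporters and channels, 4 rose and 1 fell at 2 h (median 0.22), beside 9.51% higher and 15.7% lower among all probe sets. At 30 min 0 passed by limma (1 before adjustment, median -0.03), beside 24.0% of all probe sets. The faller was Slc12a5, the neuronal exporter KCC2, at 11.01 ± 0.14 in depolarized against 11.37 ± 0.06 in control cultures, a difference of -0.36 (adjusted p = 0.00717 by limma). Slc12a2, the importer NKCC1, rose by 0.24 (adjusted p = 0.0427), with overlapping arrays, and Slc12a4 and Slc12a7, relatives of KCC2 that many cell types express, rose by 0.27 and 0.22 (adjusted p = 0.0236 and 0.0387). Slc12a5 was also higher at 2 h than at 30 min in control cultures, by 1.69 (adjusted p = 2.27e-09).

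**Figure D4:**
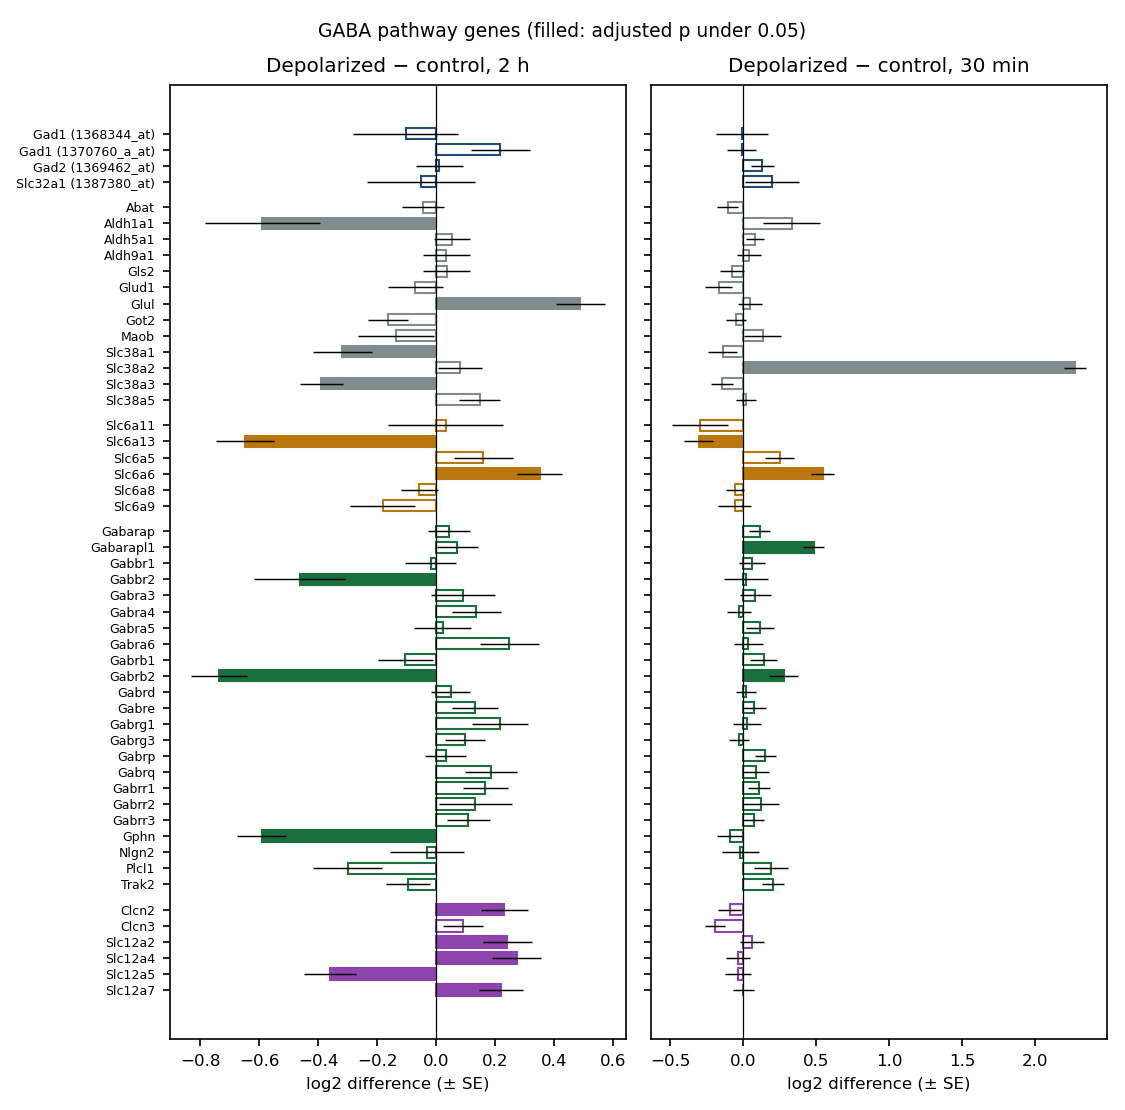
Log2 difference, depolarized minus control, with its SE (horizontal axis, a separate scale for each panel) of the 4 marker probe sets and of the genes of the GABA pathway lists, at 2 h on the left and at 30 min on the right. Filled bars passed at an adjusted p of 0.05 by limma; the 4 marker bars are open in both panels, and Slc38a2 at 30 min is the longest bar, at 2.28.

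Profiles were also compared over the 12 arrays after each probe set's own mean was taken off, by the root mean square (RMS) difference in log2 units, where a small value is a close likeness. Nearest to Gad1 probe set 1368344_at were Ptpn5, a tyrosine phosphatase of the striatum (0.202), Pfkp, a phosphofructokinase (0.209), Cd200, a membrane glycoprotein (0.221), Gnas, which encodes a stimulatory G protein subunit (0.241), and Celf5, an RNA-binding protein (0.262), beside a median of 0.996 over all probe sets. Slc32a1 was at 0.318 from it, and 0.183% of probe sets were closer. Gad1 probe set 1370760_a_at was at 0.443 from Slc32a1, with 73.6% of probe sets closer to it, and at 0.240 from Gad2, with 4.42% closer. Nearest to Slc32a1 were Ina, a neuronal intermediate filament (0.150), Stmn2, a neuronal tubulin-binding protein (0.176), Mapt, the axonal protein tau (0.185), Gabbr1, a GABA-B receptor subunit (0.193), and Synpr, a synaptic vesicle protein (0.204), beside a median of 0.759. That Gabbr1 probe set differed by 1.30 between the controls (2 h minus 30 min), and the 4 other Gabbr1 probe sets differed by -0.55 to 1.06.

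Gad1 probe set 1370760_a_at was nearest to Tnik (0.110), Ndn (0.118), Gnaz (0.121), Sgip1 (0.124) and Rgs3 (0.124), beside a median of 0.394. Gad2, whose profile was nearly flat, was nearest to Gipr (0.0564), Calm2 (0.0744), Nudt4 (0.0745), Grik1 (0.0785) and Gchfr (0.0789), beside a median of 0.227. The arrays shared 1 step between the collections, so many probe sets with that step lie close to these profiles.

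**Figure D5:**
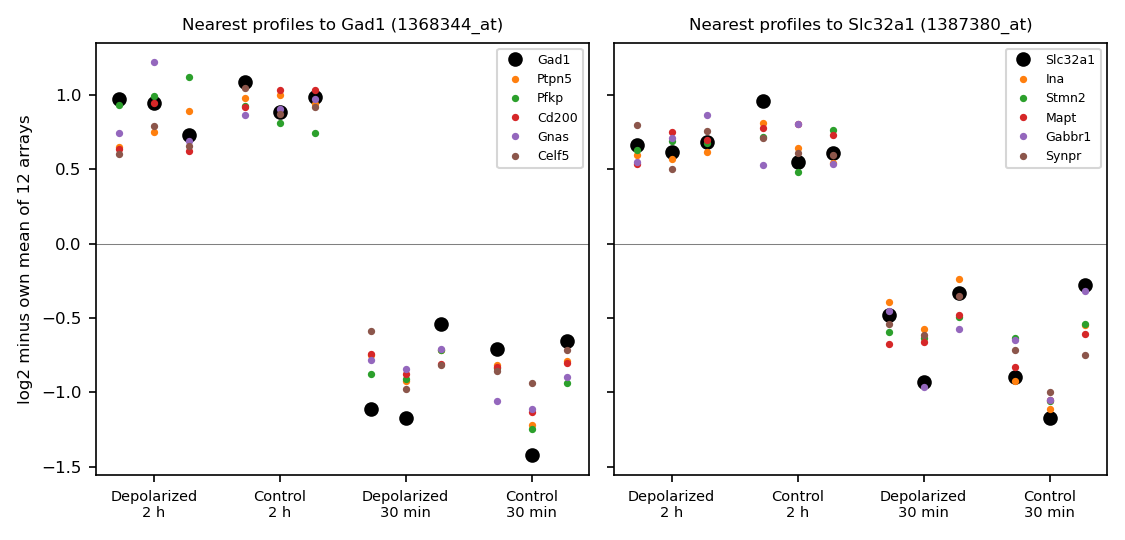
Log2 expression minus each probe set's own mean over the 12 arrays (vertical axis) in every array by group (horizontal axis), for Gad1 probe set 1368344_at and for Slc32a1 (large black points) with the 5 genes nearest to each (small points). All the points of the 2 h collection lie above 0 and all those of the 30 min collection below it.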

How the data were processed

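Expression was measured on an Affymetrix rat array, 1 array per sample, in 12 pooled cultures. The deposited table holds log2 values. RMA is the tool that the submitters' processing notes name for the authors' step, with no version. Which arrays were normalized together is not given in the sources used here. The log2 scale was read from the values (4.41 to 14.58, array medians 8.33 to 8.43). Of 15923 probe sets, 57 array controls were left out. The platform annotation, which can be old, paired 12783 probe sets with a single symbol, 312 with several and 2771 with none, and genes are named only from the first kind.

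Group means of all 12 arrays were estimated in 1 linear model with limma 3.58.1 in R 4.3.3 (8 residual degrees of freedom). Tests are two-sided. Exact permutation tests used scipy 1.17.1 and Python 3.11.15. Other settings tried were a fit restricted to the compared arrays, other scalings, filters on dim probe sets, array weights, other variance priors, a stricter threshold, a replicate block and each array left out. The fit was tested on simulated data. The number of arrays limits the precision, since array values carry no read depth.

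The members and the 14 gene lists (155 of 198 symbols measured) were chosen with earlier results of these data known. Genes of lists were taken at the probe set with the highest mean. Named were all member probe sets, up to 4 genes per pathway or lineage list with the smallest p in each treatment comparison, a fixed set (Slc6a11, Abat, Aldh5a1, Slc12a5, Slc12a2, Slc17a6, Th, Tubb3, Fos; some others of the set are not reported here) and the 5 nearest profiles of each member. Gata2, Gata3, Tal1, Sst, Npy, Pvalb and the comparison of the Gad1 probe sets were chosen after values were seen. Between the controls 2 of 4 serotonergic markers rose and 0 fell, and 1 of 11 endothelium, mural cell and fibroblast markers rose and 3 fell. Promoter sequences are from RefSeq (GRCr8), which matched all 3 genes; the planned protein sequences were not used here.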

Additional observations from a re-analysis of the deposited data

Results flagged for a closer look

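For 6 genes of the GABA pathway lists and for Fos, the test of the response at 2 h minus the response at 30 min passed (limma, interaction). Of 13 genes of GABA supply and breakdown 1 was higher and 2 lower, and of 23 receptor and synapse genes 3 were lower. In the lists of membrane transporters, chloride transporters and lineage factors 0 passed. Over all probe sets 13.0% passed, so these counts are not read as a trait of the lists. The difference between the responses was -2.19 for Slc38a2, an amino acid transporter, on the log2 scale. It was -1.01 for Gabrb2, a GABA-A receptor subunit, at the probe set with the highest mean. At the other Gabrb2 probe set it was -0.10 and did not pass (adjusted p = 0.649 by limma). It was -0.92 for Aldh1a1, an aldehyde dehydrogenase. It was -0.50 for Gphn, gephyrin. It was -0.41 for Gabarapl1. It was 0.44 for Glul, glutamine synthetase. It was -0.67 for Fos, at 1375043_at.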

How the results depend on the processing

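All 4 probe sets passed in every alternative run for the control cultures at 2 h against 30 min, including the 12 fits that each left out 1 array, and so did the Gad1 probe sets and Slc32a1 between depolarized cultures, except that probe sets under a filter on dim signal have no value there (Gad2 and Gad1 1370760_a_at were removed with the dimmest 50%). The Gad2 difference between depolarized cultures (0.21) was no longer past the threshold when only the arrays compared were fitted (0.21), after median centring (0.18), with array weights (0.17), with a trended and robust prior (0.21), in the ordinary equal-variance test (0.21) and at a threshold of 0.01 (0.21), and it ranged from 0.12 to 0.26 with 1 array left out. Some differences that did not pass in the main fit changed sign under other settings. At 30 min, median centring gave 0.040 for Gad1 1368344_at and 0.039 for 1370760_a_at, and quantile normalization gave 0.031 for 1368344_at. At 2 h, quantile normalization gave -0.037 for Gad2 and 0.013 for Slc32a1, array weights gave -0.0022 for Gad2, and the mean of both Gad1 probe sets gave 0.056. The response difference of Gad1 1368344_at was 0.012 with array weights and 0.066 for the mean of both probe sets. With 1 array left out, the depolarized minus control difference at 30 min ranged from -0.26 to 0.13 for Gad1 1368344_at, from -0.060 to 0.047 for 1370760_a_at and from 0.0032 to 0.45 for Slc32a1; at 2 h it ranged from 0.15 to 0.34 for Gad1 1370760_a_at, from -0.076 to 0.066 for Gad2 and from -0.13 to 0.076 for Slc32a1; the response difference of Gad1 1368344_at ranged from -0.23 to 0.15. In these fits Slc32a1 at 30 min and Gad1 1370760_a_at at 2 h kept their sign. For each, 11 of 12 fits kept the outcome of the main fit. Slc32a1 passed without control replicate 3 (adjusted p = 0.0462 by limma), and Gad1 1370760_a_at without control replicate 6 (adjusted p = 0.0152 by limma). The causes were not tested. Deviations from group means correlated from -0.32 to 0.24 between depolarized and control arrays of the same number, and from -0.42 to 0.35 between other numbers. Of 6 depolarized arrays, 2 correlated best with the control of their own number. With 3 arrays per group, these values cannot settle whether cultures of the same number shared a pool of embryos. With the replicate block, 3617 probe sets passed at 2 h against 4001 without it, 3524 at 30 min against 3805, and no marker probe set changed its side of the threshold. Median centring turned the share of calls that were higher to 51.4% at 2 h, against 37.7% as deposited, and to 58.9% at 30 min, against 45.2%.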
